A study of Mus musculus with 42 samples.

Results

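Transcripts of 10 mouse genes that encode intermediate filament proteins were followed through RNA-seq libraries of cultured muscle precursors and of satellite cells, the resident stem cells of skeletal muscle. They comprise 3 keratins of simple epithelia (Krt8, Krt18 and Krt19), 4 filament genes of the type III and type IV classes (Vim, Des, Nes and Synm) and 3 lamins (Lmna, Lmnb1 and Lmnb2). They were taken by symbol from the 24466 genes listed in the count files, and all 10 passed the filter on low counts that left 14836 genes for testing. The genes were chosen by their symbols with the differences in their RNA counts between the 3 conditions already known. The RNA values given for them are therefore a description, and calls among them do not count as tests.

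The study asked how Pax7, a paired-box and homeodomain transcription factor of muscle stem cells, shapes chromatin in myogenic precursors. It combined RNA-seq with ATAC-seq, which maps accessible DNA, and with ChIP-seq for Pax7 and 4 histone marks. The iPax7 cells come from 1 mouse embryonic stem cell line that carries a doxycycline-inducible Pax7 gene, and they were sorted from embryoid bodies as PDGFαR+ Flk-1- precursors. C2C12 is an established mouse myoblast line.

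In the RNA-seq data, +Dox stands for iPax7 cells kept in 0.75 µg/ml doxycycline (3 libraries) and -Dox for iPax7 cells 3 days after its withdrawal (2 libraries). Both share the inducible transgene and had been exposed to doxycycline during derivation. The satellite cells (3 libraries) were labelled as in vivo and were sorted by a Pax7-ZsGreen reporter from mice whose age is not given in the sources used here. ATAC-seq also covered 12 h and 24 h after withdrawal, iPax7 and C2C12 myotubes in 2% horse serum, and C2C12 myoblasts in 10% FBS that were unmodified, carried a Flag control or carried Pax7-Flag. Pax7-Flag in these cells is an introduced gene, not the endogenous one.

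Intermediate filaments are rope-like polymers that give cells and nuclei mechanical strength. Type I keratins pair with type II keratins, and the Krt8 and Krt18 pair is the typical filament of simple epithelia and of the early embryo. Vimentin is the common filament of mesenchymal cells and of proliferating myoblasts, nestin joins it in many progenitors, and desmin, with synemin, replaces it in maturing muscle, where it links myofibrils to one another and to the membrane. Lamins line the inner nuclear membrane: A-type lamins come from Lmna and increase in differentiated and mechanically loaded tissue, while B-type lamins come from Lmnb1 and Lmnb2.

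Library depth was 39010958 to 54674619 gene counts. Reads without a unique position came to between 7.11% and 7.60% of reads in the iPax7 libraries and to between 23.6% and 30.7% in satellite cells. Pax7, the induced gene, had normalised counts of 12759, 14130 and 11610 in +Dox, 221 and 270 in -Dox, and 8504, 3926 and 5456 in satellite cells, so each library matched its label. Satellite cell markers summed to 756300 to 1239000 normalised counts in satellite cells (11 of 11 genes over 100), 187500 to 266300 in +Dox (8 of 11) and 52660 to 55920 in -Dox (8 of 11). Endothelial markers summed to 18250 to 26820 normalised counts in satellite cells, with 8 of 8 genes over 100, against at most 167.6 in the iPax7 libraries. Fibroblast and mesenchymal markers summed to 73550 to 141900 there, with 8 of 8 genes over 100, against 4541 to 12600 in iPax7 cells. The corresponding sums in satellite cells were 1743 to 8302 for blood (6 of 8 genes over 100) and 7600 to 10770 for Schwann cells (5 of 6), against at most 780 and 757.6 in iPax7 cells, and their part in any result was not tested. In bulk RNA, a change in the share of cells of a type and a change in RNA per cell cannot be told apart.

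Krt8 and Krt18 were highest in +Dox, Nes was highest in -Dox, Des and Lmna were highest in satellite cells, and Lmnb1 and Lmnb2 were lowest in -Dox. A gene counts as called where edgeR's quasi-likelihood test gave an adjusted p under 0.05 and a change of at least 2-fold. From +Dox to -Dox, 2 genes were higher (Nes and Des) and 2 lower (Krt8 and Krt18), where 7.64% of all genes tested were called (4.63% higher and 3.01% lower). In satellite cells against +Dox, 2 were higher (Des and Lmna) and 3 lower (Krt8, Krt18 and Nes), where 42.1% of all genes tested were called (23.9% higher and 18.2% lower). In satellite cells against -Dox, the 3 lamins were higher and Krt8, Krt18 and Nes lower, where 37.6% were called (20.4% higher and 17.2% lower). The Lmnb1 call was lost in 8 of 12 alternatives and the Lmnb2 call in 6, among them scaling to library totals for both, while the other 4 calls were kept in all 12. These calls, and how many alternatives kept them, follow from how the genes were chosen. They lend no support to the differences and are read no further. From +Dox to -Dox, libraries did not overlap for 2 higher and 5 lower members, where 45.3% of all genes tested did not overlap (22.7% higher and 22.7% lower). For satellite cells against +Dox they did not overlap for 3 higher and 3 lower members, where 56.5% did not (30.2% higher and 26.3% lower). For satellite cells against -Dox the counts were 5 higher and 3 lower, where 64.3% did not overlap (33.7% higher and 30.6% lower). The median log2 fold change over the members was -0.70, -0.03 and 0.86 in the same order, against -0.0049, 0.17 and 0.23 over all genes tested.

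**Figure D1:**
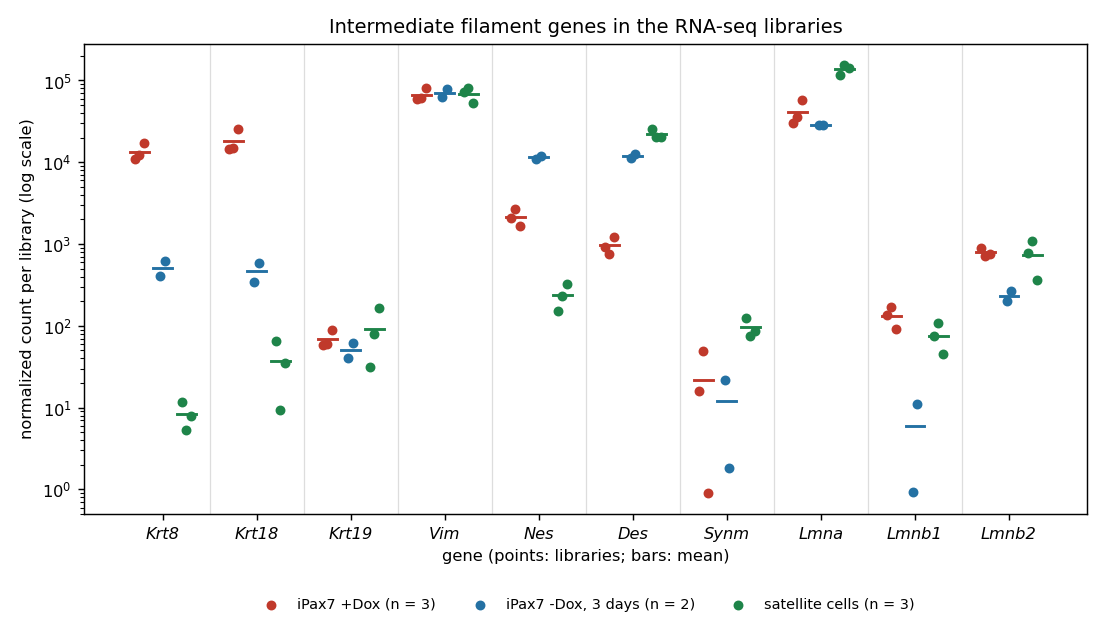
Normalised read counts of the 10 intermediate filament genes in each of the 8 RNA-seq libraries, on a log axis, with points for libraries and bars for the mean of each condition. Krt8 and Krt18 lie between 10839 and 25585 in the 3 +Dox libraries and between 5.36 and 65.8 in the 3 satellite cell libraries, whereas Vim stays between 53035 and 81819 in all 8.

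Krt8, the type II partner of the pair, lies on chr15:101827142-101834773 (mm9, minus strand). Its normalised counts were 10839, 12258 and 17121 in +Dox, 402 and 629 in -Dox, and 11.8, 5.36 and 7.91 in satellite cells. The 3 conditions did not overlap: every +Dox library stood far above both -Dox libraries, which in turn stood far above satellite cells. The log2 fold change was -4.70 (approximate SE 0.42) for -Dox against +Dox, -10.62 (SE 0.47) for satellite cells against +Dox and -5.92 (SE 0.42) for satellite cells against -Dox. The satellite cell value rests on 9, 4 and 6 reads, and counting error alone places the +Dox mean between 1020 and 2660 times the satellite cell level. A near copy of the Krt8 transcript, 97.9% identical over 1734 bases, lies in an intron of Nlrp4e at chr7:24142113-24143830, so reads shared with it make the Krt8 counts uncertain.

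Krt18, the type I partner, starts 23.9 kb from Krt8 on the opposite strand, at chr15:101858647-101862457 (plus strand), and the genes diverge from the interval between them. Normalised counts of Krt18 were 14588, 14881 and 25585 in +Dox, 348 and 581 in -Dox, and 65.8, 9.38 and 35.6 in satellite cells. The order of conditions was that of Krt8, again with no overlap. Log2 fold changes were -5.30 (SE 0.72), -8.95 (SE 0.71) and -3.65 (SE 0.61) for -Dox against +Dox, satellite cells against +Dox and satellite cells against -Dox. Over the 8 libraries the log2 counts of Krt8 and Krt18 had a Pearson r of 0.985, a description that is set by the difference between the conditions. No near copy of the Krt18 transcript was found at an identity of at least 95% over 100 bases.

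Krt19, a small type I keratin without the usual tail domain, was at a low level everywhere (chr11:100002124-100009979, minus strand). Its normalised counts were 57.8, 60.7 and 89.2 in +Dox, 40.4 and 61.8 in -Dox, and 31.6, 80.4 and 165 in satellite cells. All 3 conditions overlapped, and the spread within satellite cells exceeded the distance between the means. Its log2 fold change against +Dox was -0.44 (SE 1.02) in -Dox and 0.41 (SE 0.90) in satellite cells, the latter turning to -0.30 without satellite cell replicate 3 and to -0.0007 when counts were scaled to library totals.

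Epithelial markers were mostly low or absent in the +Dox libraries. Of 20 epithelial markers, 5 exceeded a mean of 100 normalised counts in +Dox, 3 in -Dox and 1 in satellite cells, and 6, 8 and 10 had no read in any library of the condition. Their summed level was 1174 to 1475 in +Dox, 3044 to 3575 in -Dox, where Trp63 made up most of it, and 151.5 to 655.6 in satellite cells. Cldn4 and Cldn6, which encode tight junction claudins, averaged 420 and 324 in +Dox and 7.85 and 75.2 in -Dox. Esrp2 averaged 69.2 in +Dox and had no read in -Dox or satellite cells, and St14 averaged 123 in +Dox, 97.2 in -Dox and 22.5 in satellite cells. Epcam, the epithelial adhesion molecule, had no read in the 3 +Dox libraries, and Cdh1, which encodes E-cadherin, reached 1.5 in 1 of them. Satellite cell replicate 1 held more of these transcripts than the other two, with 126 for Epcam and 176 for Cdh1, against 0 and 57.6 in replicate 2 and 1.32 and 0 in replicate 3.

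The 250 bases upstream of the start sites of Krt8, Krt18 and Des are printed because accessible peaks at these starts were listed in some of the cell types and not in others. They are mm9 sequence, written 5′ to 3′ along each gene's strand and ending 1 base before the annotated start, from chr15:101834774-101835023 (minus strand) for Krt8, chr15:101858397-101858646 (plus strand) for Krt18 and chr1:75356654-75356903 (plus strand) for Des. Capitals mark each match to CANNTG, the E-box that basic helix-loop-helix factors such as MyoD bind, which reads the same on both strands.
Krt8: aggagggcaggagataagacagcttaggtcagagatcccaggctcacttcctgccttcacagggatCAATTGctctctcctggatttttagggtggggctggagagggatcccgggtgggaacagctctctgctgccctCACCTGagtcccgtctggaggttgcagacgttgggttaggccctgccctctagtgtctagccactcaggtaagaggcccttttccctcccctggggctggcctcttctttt
Krt18: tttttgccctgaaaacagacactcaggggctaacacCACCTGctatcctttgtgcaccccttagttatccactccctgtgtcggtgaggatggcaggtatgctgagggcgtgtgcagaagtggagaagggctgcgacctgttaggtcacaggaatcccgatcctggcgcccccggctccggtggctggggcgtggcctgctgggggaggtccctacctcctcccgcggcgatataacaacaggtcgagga
Des: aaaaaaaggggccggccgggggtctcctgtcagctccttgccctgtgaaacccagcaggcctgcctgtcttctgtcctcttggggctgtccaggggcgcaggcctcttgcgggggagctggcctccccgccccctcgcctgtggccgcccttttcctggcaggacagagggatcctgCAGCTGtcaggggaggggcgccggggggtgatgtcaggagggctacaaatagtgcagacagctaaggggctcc
Krt8 held 2 matches, which begin at -184 and -111 from the start, and Krt18 held 1 at -214. The single match of Des, at -73, had the core CAGCTG. Of 45975 coding start sites, 62.9% held a CANNTG in a window of the same length and 12.6% held a CAGCTG. None of the 3 windows held TATAAA on either strand, which 10.5% of windows did. Their GC content was 58% for Krt8, 60.4% for Krt18 and 66.8% for Des.

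Vim (chr2:13495554-13504453, plus strand) was the most constant gene of the set. Normalised counts of Vim were 58987, 60989 and 81544 in +Dox, 63400 and 78043 in -Dox, and 71611, 81819 and 53035 in satellite cells. All 3 conditions overlapped. The log2 fold change was 0.07 (SE 0.27) for -Dox against +Dox, 0.03 (SE 0.24) for satellite cells against +Dox and -0.04 (SE 0.27) for satellite cells against -Dox. Scaling to library totals moved the first value to -0.13 and the second to -0.33, and that scaling shifted the median of all genes by -0.22 and -0.38. Vim is also a major filament of fibroblasts and endothelium, whose marker sums differed between the satellite cell and iPax7 libraries as given above.

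Nes, the large type IV protein of progenitor cells (chr3:87775000-87784373, plus strand), had its highest level after withdrawal. Its normalised counts were 2076, 2684 and 1658 in +Dox, 11057 and 11886 in -Dox, and 154, 231 and 328 in satellite cells. The 3 conditions did not overlap, with both -Dox libraries well above +Dox and satellite cells lowest. Fitted log2 fold changes for Nes were 2.42 (SE 0.35) for -Dox against +Dox, -3.17 (SE 0.35) for satellite cells against +Dox and -5.59 (SE 0.40) for satellite cells against -Dox. Nes was thus low in freshly sorted satellite cells, which had the greatest Des level.

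Des, the muscle filament (chr1:75356904-75365154, plus strand), was lowest in +Dox. Normalised counts of Des were 910, 765 and 1234 in +Dox, 11342 and 12656 in -Dox, and 25180, 20456 and 20176 in satellite cells. Each condition lay clear of the next, and the lowest satellite cell library exceeded the highest -Dox library. For Des the log2 fold change was 3.63 (SE 0.28) for -Dox against +Dox, 4.50 (SE 0.28) for satellite cells against +Dox and 0.87 (SE 0.28) for satellite cells against -Dox, the last under 2-fold. Markers of the differentiated myofiber took another course. They summed to 1904000 to 1968000 normalised counts in -Dox (12 of 12 genes over 100), against 10890 to 14730 in +Dox (6 of 12) and 9694 to 16570 in satellite cells (8 of 12). The highest Des level was measured in libraries whose range of myofiber marker sums overlapped that of +Dox, but single markers differed in both directions. Ckm averaged 8.94 in +Dox and 1064 in satellite cells, and Acta1 2255 and 7106. Mylpf averaged 1225 and 240 in the same order, and Ttn 4432 and 724. The part of myofiber RNA in the Des level was not tested. Smooth muscle and pericyte markers, whose cells also contain desmin, summed to 3249 to 7273 in +Dox, 54200 to 54280 in -Dox and 15610 to 35930 in satellite cells (1, 2 and 4 of 6 genes over 100), and their part in the Des level was not tested. In -Dox nearly all of that sum was Acta2, smooth muscle actin, which differentiating skeletal muscle also expresses (53987 and 53844), while Cnn1 had no read and Myh11 had 0 and 71.1.

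Synm, which encodes a large protein that co-assembles with desmin and vimentin, was scarce (chr7:74875047-74904628, minus strand). Its normalised counts were 15.8, 48.9 and 0.91 in +Dox, 22.1 and 1.85 in -Dox, and 126, 75.1 and 85.7 in satellite cells. Satellite cells stood above both iPax7 conditions, which overlapped each other and varied widely. The log2 fold change was -0.87 (SE 1.59) for -Dox against +Dox. It became 0.53 without +Dox replicate 2, 0.03 without -Dox replicate 2 and -3.48 without -Dox replicate 1. For satellite cells it was 2.12 (SE 1.44) against +Dox and 2.99 (SE 1.76) against -Dox, neither of which met the call rule. The value against -Dox ran from 2.06 to 5.60 over libraries left out.

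Lmna (chr3:88285070-88313878, minus strand) encodes lamins A and C. Normalised counts of Lmna were 29972, 35588 and 57673 in +Dox, 28246 and 28657 in -Dox, and 117527, 153130 and 143276 in satellite cells. All 3 satellite cell libraries exceeded every iPax7 library, and both -Dox libraries lay just below the lowest +Dox library. Fitted log2 fold changes for Lmna were -0.53 (SE 0.31) for -Dox against +Dox, 1.75 (SE 0.28) for satellite cells against +Dox and 2.28 (SE 0.33) for satellite cells against -Dox.

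Lmnb1 (chr18:56867467-56913078, plus strand) encodes lamin B1, which is abundant in proliferating cells. Its normalised counts were 135, 172 and 92.0 in +Dox, 0.92 and 11.1 in -Dox, and 75.0, 109 and 44.8 in satellite cells. Both -Dox libraries fell below all others, while satellite cells overlapped +Dox. The -Dox value rests on 1 and 12 reads, and counting error alone places the +Dox mean between 12.9 and 41.7 times the -Dox level. The fitted log2 fold change was -4.44 (SE 1.34) for -Dox against +Dox, -0.80 (SE 0.97) for satellite cells against +Dox and 3.64 (SE 1.29) for satellite cells against -Dox. Without -Dox replicate 2 the first and last became -6.99 and 6.15, and without -Dox replicate 1 they became -3.57 and 2.77.

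Lmnb2, the second B-type lamin gene (chr10:80363948-80380990, minus strand), showed the same order at a greater level. Normalised counts of Lmnb2 were 904, 705 and 759 in +Dox, 202 and 263 in -Dox, and 769, 1092 and 364 in satellite cells. Only -Dox stood apart, and replicate 3 of the satellite cells was the lowest outside it. For Lmnb2 the log2 fold change was -1.76 (SE 0.53) for -Dox against +Dox, -0.09 (SE 0.45) for satellite cells against +Dox and 1.67 (SE 0.53) for satellite cells against -Dox. The second value became 0.24 without satellite cell replicate 3. Short stretches of the Lmnb2 transcript matched 2639 other loci, the longest over 108 bases at 95.4% identity, and their part in its counts was not tested. Beside the B-type lamins, the 10 cell cycle markers summed to 84280 to 90710 normalised counts in +Dox, 7187 to 7429 in -Dox and 1497 to 3453 in satellite cells (10, 9 and 8 of 10 genes over 100). Satellite cells thus had Lmnb1 and Lmnb2 levels that overlapped +Dox together with the lowest cell cycle sum.

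**Figure D2:**
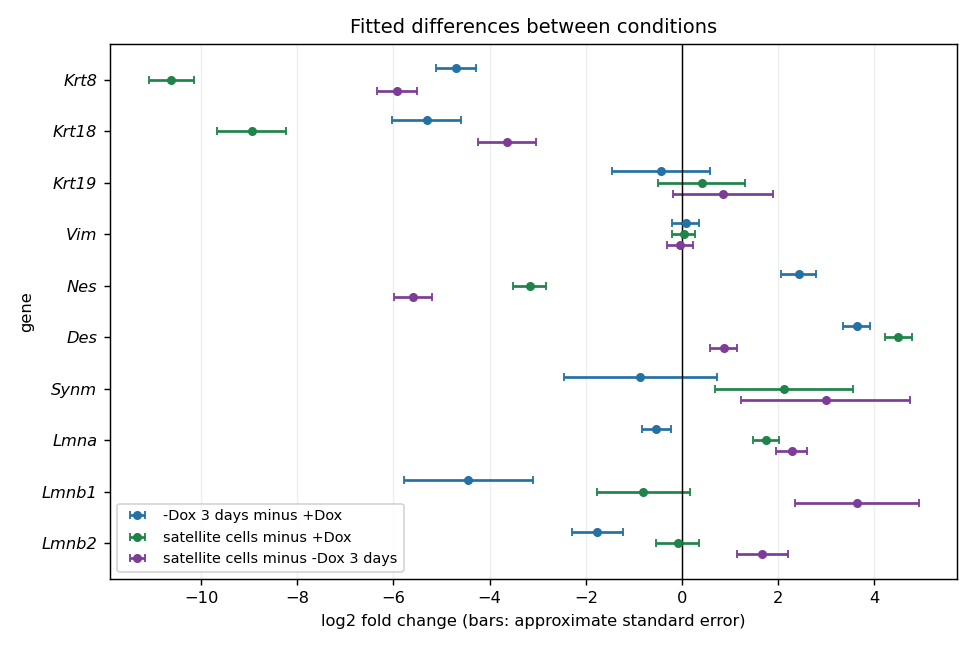
Log2 fold changes of the 10 genes in the 3 comparisons, with points for the fitted value and bars for 1 approximate standard error. Values run from -10.62 for Krt8 in satellite cells against +Dox to 4.50 for Des in the same comparison, and the widest bars belong to Synm and Lmnb1.

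Levels per kilobase of exon allow the genes to be ranked within a condition. In +Dox, Vim led with a mean of 28770 normalised counts per kilobase, followed by Krt18 (13110), Lmna (9661) and Krt8 (7427), whose ranges over libraries overlapped from one to the next. Nes (333), Des (258) and Lmnb2 (184) came next with overlapping ranges, then Lmnb1 (44.9) and Krt19 (37.3), which also overlapped, and Synm (2.76) was lowest. In -Dox, the order was Vim (30290), Lmna (6691), Des (3196) and Nes (1788), each clear of the next, then Krt18 (332) and Krt8 (285), which overlapped, and Lmnb2 (54.3), Krt19 (27.6), Lmnb1 (2.03) and Synm (1.51), the last pair again overlapping. In satellite cells, Lmna (32450) and Vim (29470) overlapped at the top and Des (5844) followed alone. Lmnb2 (173), Krt19 (49.8), Nes (37.0), Krt18 (26.4), Lmnb1 (25.7) and Synm (12.1) formed a run in which every neighbour overlapped, and Krt8 (4.64) was last. Krt8 and Krt18 thus stood among the 4 most abundant members per length in +Dox, and Krt8 was the least abundant in satellite cells.

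Accessibility at the start sites was read from ATAC-seq peak lists that were not used to choose the genes. Each list was called on merged replicates, so presence or absence of a peak within 1 kb of a start site has no replicate check. At Krt8 up to 3 separate peaks entered this window: one over the start, one inside the gene centred about 1.1 kb downstream and one centred about 1.1 kb upstream. The peak over the start had a fold enrichment of 6.37 in +Dox, 4.32 at 12 h, 7.03 at 24 h, where it ran together with the upstream peak, and 2.77 at 3 days. In the other 6 lists no peak covered the start. The peak inside the gene was higher, with 16.6, 11.1, 15.7 and 11.5 in the same 4 lists, 4.17 in iPax7 myotubes and 3.32 in satellite cells, where it lay wholly outside the window.

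Krt18 had a weak peak in the 4 iPax7 precursor lists, with fold enrichments of 3.53, 2.69, 3.95 and 2.77, all at or below percentile 6.29 of their lists, and none in the other 6 lists. Krt19 had a peak at 12 h, 24 h and 3 days but none in +Dox, C2C12 myotubes, unmodified C2C12 myoblasts or satellite cells. All 3 keratins therefore lacked a promoter peak in satellite cells, where 58.6% of 22232 coding genes had one, and in C2C12 myotubes, where 54.2% did. In C2C12 cells the Krt8 window was reached only by the upstream peak, or by none in C2C12 myotubes. Its fold enrichment was 19.9 with Pax7-Flag, 6.72 with the Flag control, 2.98 in unmodified cells, the shortest list with 42700 peaks, and 4.23 in C2C12 myotubes, where it lay outside the window. The same upstream peak had 9.13 in +Dox, 6.31 at 12 h and 4.35 at 3 days.

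The interval of 23875 bases between the starts of Krt8 and Krt18 held 9 accessible peaks in +Dox and 8 each at 12 h, 24 h and 3 days, covering 15.5%, 16%, 18.6% and 12.8% of its bases. Satellite cells had no peak in it, iPax7 myotubes had 4 and C2C12 myotubes 3. In C2C12 myoblasts it held 6 peaks with the Flag control and 7 with Pax7-Flag, covering 12.6% and 20.3%. H3K27Ac, a mark of active enhancers and promoters, covered 19.1% of the interval in +Dox and 5.12% in -Dox, beside lists of 119528 and 90168 peaks. It covered 48.6% in the Flag control against 74.8% with Pax7-Flag, beside lists of 81508 and 108211. H3K4me3 went the other way in iPax7 cells, from 15.1% to 56.1%, beside lists of 94067 and 214172 peaks. No Pax7 site was listed between the genes, and the nearest lay 196 kb from the Krt18 start.

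**Figure D3:**
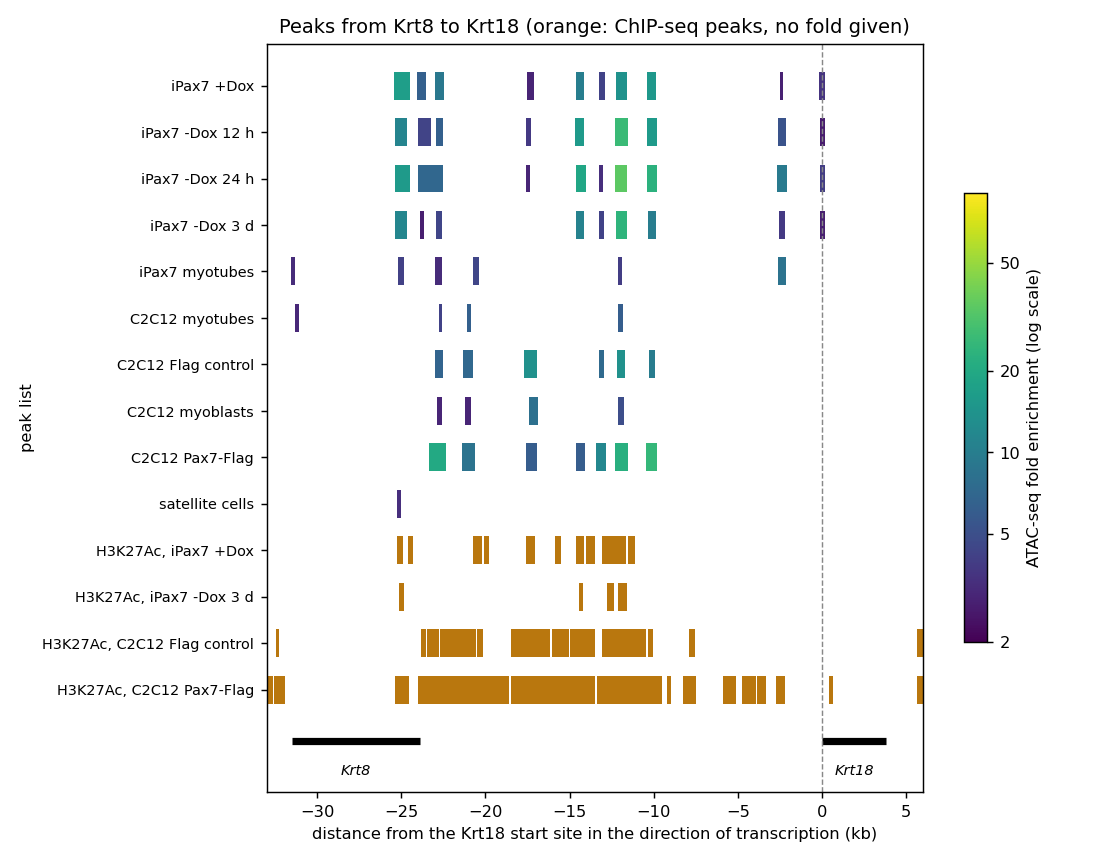
Accessible peaks and H3K27Ac peaks around Krt8 and Krt18, by distance from the Krt18 start in kilobases, with 1 row per peak list. The 4 iPax7 precursor rows hold 8 or 9 accessible peaks between the genes, and the satellite cell row holds none.

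Des lacked a peak within 1 kb of its start in +Dox, at 12 h and at 3 days, and had a weak one at 24 h with a fold enrichment of 2.84 (percentile 1.83). The fold enrichment was 11 in iPax7 myotubes, 13.7 in satellite cells, 26.1 in C2C12 myotubes and 15.4, 4.47 and 12.3 in Flag control, unmodified and Pax7-Flag C2C12 myoblasts. Transcripts were nonetheless 11342 and 12656 in the -Dox libraries, in which cells the start had no listed peak. A peak 1.66 kb downstream of the start was listed at 3 days with a fold enrichment of 3.79. H3K4me3, the mark of active promoters, covered 1060 bases around the Des start in +Dox and 1933 in -Dox, beside lists of 94067 and 214172 peaks. H3K27Ac covered 1094 and 1226, beside lists of 119528 and 90168.

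All 10 ATAC-seq lists shared a pair of peaks upstream of Des, at about -15.5 kb and -12.8 kb. At -12.8 kb the fold enrichment was 7.32 in +Dox, 12 at 12 h, 17 at 24 h and 16.8 at 3 days, and 14.1 in satellite cells. It was 13.7 in iPax7 myotubes, 25.6 in C2C12 myotubes, and 26.5, 8.81 and 8.19 in C2C12 myoblasts with the Flag control, with Pax7-Flag and unmodified. At -15.5 kb it was 8.35, 8.88, 15.9 and 7.12 in the 4 iPax7 precursor lists and 5.86 in satellite cells. These peaks were thus present in +Dox cells, in which the start site itself had none. No Pax7 site was listed within 20 kb of the Des start.

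**Figure D4:**
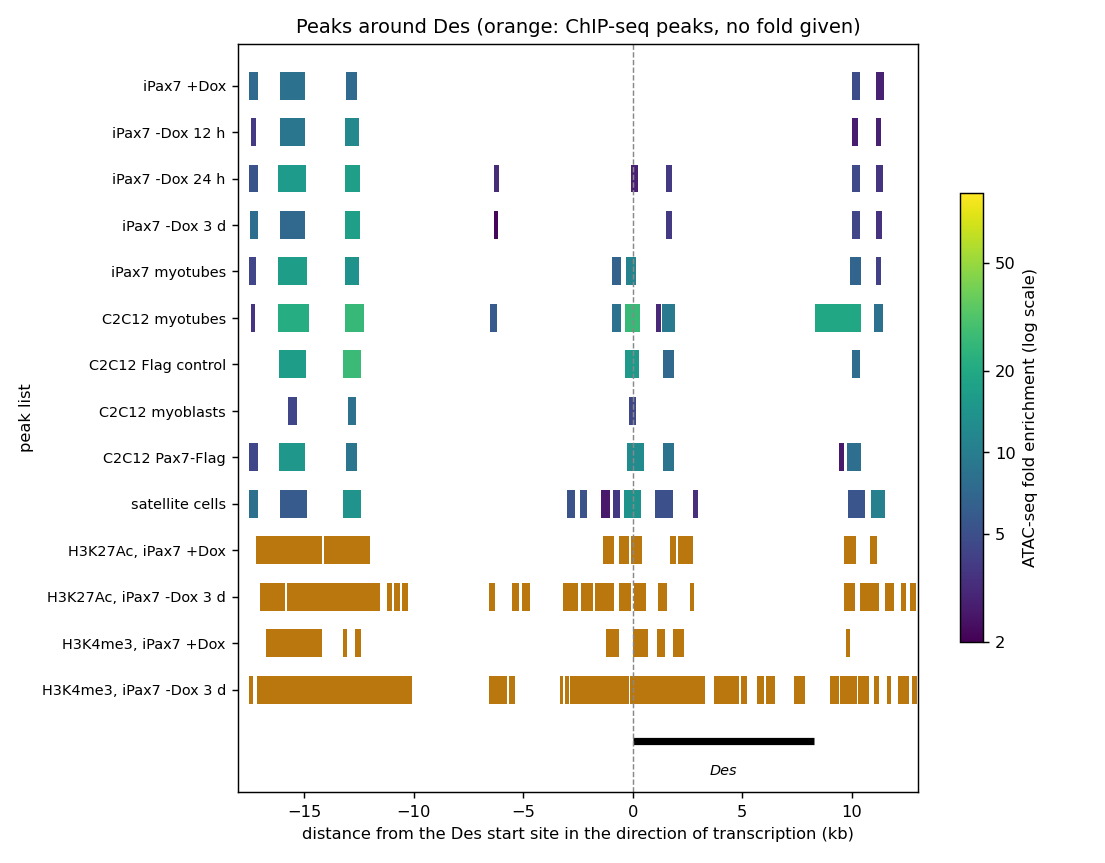
Accessible, H3K27Ac and H3K4me3 peaks around Des, by distance from its start in kilobases, with 1 row per peak list. Peaks near -15.5 and -12.8 kb recur in all 10 accessibility lists, while the peak at the start is absent in +Dox and is listed in satellite cells and in both myotube samples.

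Of the other genes, Vim, Nes, Synm, Lmna and Lmnb1 had a promoter peak in all 10 lists and Lmnb2 in 9. The highest fold enrichment within 1 kb of a Vim start ran from 15.9 to 77.2 and stood between percentiles 78 and 95.6 of every list. Nes, despite its range of transcript levels, had 12.8 in +Dox, 14.7 at 3 days and 6.84 in satellite cells (percentiles 31, 36.2 and 20.3). Lmna had 69.8 in +Dox, 58.6 at 3 days and 26.4 in satellite cells, where its transcript was highest (percentiles 91.7, 87.4 and 79.2). Lmnb1 had 50.5 in +Dox and 29.1 at 3 days (percentiles 82.3 and 62), and 29.3 in satellite cells (percentile 83). In all, 8 of the 10 genes had a promoter peak in +Dox (63.2% of coding genes), 9 at 12 h (61.3%), 10 at 24 h (64.4%), 9 at 3 days (65.6%), 9 in iPax7 myotubes (61.8%), and 7 in satellite cells.

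**Figure D5:**
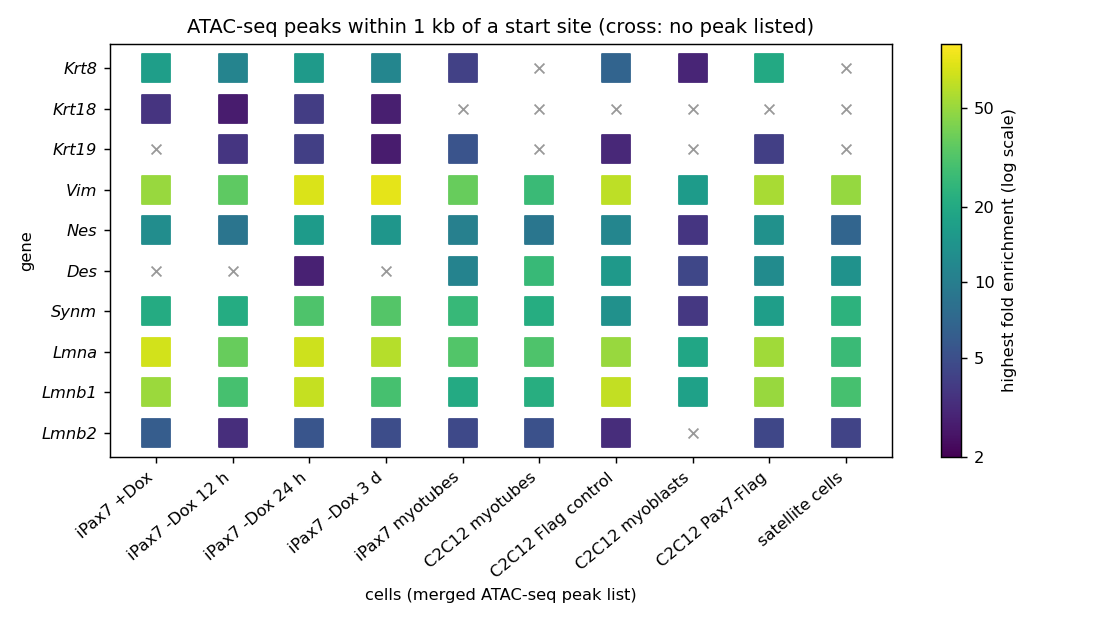
Highest ATAC-seq fold enrichment within 1 kb of a start site for the 10 genes in the 10 peak lists, with a colour on a log scale and a cross where no peak was listed. The 3 keratins have crosses in satellite cells and C2C12 myotubes, Des has one in +Dox, at 12 h and at 3 days, and Vim is filled throughout with 15.9 to 77.2.

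Histone marks within 1 kb of the starts in iPax7 cells were given only as peak extents. H3K4me3 and H3K4me1 were listed at all 10 genes with and without Dox. Of coding genes, 60.4% in +Dox and 66% in -Dox had H3K4me3, and 61.6% and 64.8% had H3K4me1. H3K27Ac was listed at 8 of 10 genes in +Dox and in -Dox, where 48% and 45.2% of coding genes had it. Krt19 had none, nor did Krt18, whose transcript was lower in -Dox. The mark covered 341 bases at Krt8 in +Dox and 18 in -Dox, 1521 and 563 bases at Lmnb1, and 474 and 387 at Lmnb2. H3K4me1 covered 1793 and 298 bases at Lmnb1, but also 1468 and 578 at Nes, whose transcript was higher in -Dox, and 2026 and 874 at Vim, whose libraries overlapped. The medians over coding genes with a peak were 1230 and 1027 bases for H3K27Ac and 1602 and 1068 for H3K4me1. H3K27me3, the Polycomb mark of silent genes, was listed at Krt19 and Synm in +Dox and also at Krt18 in -Dox, that is at 2 and 3 of 10 genes, where 21.8% and 19.9% of coding genes had it. At Krt19 it covered 1016 and 859 bases and at Synm 341 and 315, while it covered 96 at Krt18 in -Dox.

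Of 2455 Pax7 sites in +Dox cells, the centre of at least 1 lay within 100 kb of the start of 3 genes, Vim, Lmna and Lmnb2, where 18.5% of coding genes had one. The Vim site lay at -3.16 kb from the start in intergenic sequence (chr2:13491866-13492924), the Lmna site in an intron, 21.2 kb from the outermost of 4 annotated starts and 4.57 kb from the nearest internal one (chr3:88291989-88293339), and the Lmnb2 site at -10.9 kb in intergenic sequence (chr10:80391459-80392401). The central 300 bases of each are printed because the sites contrast in accessibility. They are mm9 plus strand sequence from chr2:13492245-13492544, chr3:88292514-88292813 and chr10:80391780-80392079, with capitals for TAAT, the core of homeodomain sites, on either strand (ATTA on the strand printed).
Vim: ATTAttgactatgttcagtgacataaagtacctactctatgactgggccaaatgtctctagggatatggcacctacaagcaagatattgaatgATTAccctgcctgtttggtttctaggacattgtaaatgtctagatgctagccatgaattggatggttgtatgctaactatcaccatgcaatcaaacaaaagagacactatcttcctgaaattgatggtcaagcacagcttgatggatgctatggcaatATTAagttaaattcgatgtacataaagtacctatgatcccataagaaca
Lmna: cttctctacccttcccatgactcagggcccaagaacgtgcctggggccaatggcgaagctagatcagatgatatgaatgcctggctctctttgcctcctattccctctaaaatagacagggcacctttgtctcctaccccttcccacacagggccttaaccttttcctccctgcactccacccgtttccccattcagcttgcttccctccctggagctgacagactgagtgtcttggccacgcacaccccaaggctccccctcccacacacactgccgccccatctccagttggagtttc
Lmnb2: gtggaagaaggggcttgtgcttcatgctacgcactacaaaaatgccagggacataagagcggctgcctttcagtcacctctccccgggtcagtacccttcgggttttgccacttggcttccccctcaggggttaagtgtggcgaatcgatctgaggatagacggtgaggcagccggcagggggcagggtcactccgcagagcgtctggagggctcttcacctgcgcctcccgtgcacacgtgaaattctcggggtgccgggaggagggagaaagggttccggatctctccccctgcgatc
The Vim window held 3 matches to TAAT and the other windows none, where 82.8% of all Pax7 site centres held at least 1. None of the 3 windows held TAATTA, which 9.74% did, or GTCACGC, a paired-domain core searched on both strands, which 3.22% did. Over the whole called sites, TAAT matched 8 times at Vim, 6 at Lmna and 1 at Lmnb2, so its absence at the latter pair holds only for the central 300 bases.

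The Vim site overlapped no accessible peak in any of the 10 lists, although 95.4% of all Pax7 sites overlapped one in +Dox. The Lmna site overlapped one in all 10, with a fold enrichment of 16.2 in +Dox, 15.1 at 12 h, 24.1 at 24 h, 21.5 at 3 days and 10.9 in satellite cells. At the Lmnb2 site it was 52.8 in +Dox, 21.4 at 12 h, 40.5 at 24 h, 36.3 at 3 days and 22.1 in satellite cells, and only the list of unmodified C2C12 myoblasts had no peak. The median over all Pax7 sites with a peak went from 20.4 in +Dox to 7.24, 9.87 and 10.2 in the 3 lists after withdrawal. H3K27Ac covered 750 of the 943 bases of the Lmnb2 site in +Dox and 295 in -Dox, and at the Lmna site 1286 and 1261 of 1351. At the Vim site, which had no accessible peak, H3K27Ac covered 674 of 1059 bases in +Dox and 428 in -Dox.

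Genes of the same filament systems that are not members were tested in the same model. They were grouped as other keratins, other cytoplasmic filament genes, linkers and partners of filaments, and partners of the nuclear lamina. Of 106 such genes, 55 passed the filter on low counts. From +Dox to -Dox, 2 rose and 2 fell, or 7.27% of those tested beside 7.64% of all genes. In satellite cells, 13 were higher and 10 lower than in +Dox, or 41.8% beside 42.1%, and 8 were higher and 10 lower than in -Dox, or 32.7% beside 37.6%. These shares lay near or below those of all genes. The median log2 fold change was -0.29, 0.36 and 0.39 in the 3 comparisons, against -0.0049, 0.17 and 0.23 over all genes. Adjusted p-values below are Benjamini-Hochberg values over all genes tested from edgeR's quasi-likelihood test.

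Only 6 of the 52 other keratins passed the filter. Between -Dox and +Dox edgeR called 0, with 3 at an unadjusted p under 0.05, and DESeq2 called 1 lower. In satellite cells 2 were lower than in +Dox and 1 was lower than in -Dox. These were 33.3% and 16.7% of those tested, beside 42.1% and 37.6% of all genes. Krt7, a type II keratin of simple epithelia, averaged 109 normalised counts in +Dox and 132 in -Dox and had no read in satellite cells. Against a floor of 3 counts per library it was at least 27-fold lower than in +Dox and at least 32.8-fold lower than in -Dox (edgeR adjusted p = 0.0015 and 0.0018). The other call was Krt76, named after its values were seen, which had 19.5, 2.96 and 64.7 in +Dox and no read elsewhere (edgeR adjusted p = 0.044). Of the 6 other cytoplasmic filament genes tested, Nefl, the neurofilament light chain, was the one called. It averaged 1939 in +Dox and 414 in -Dox, a log2 fold change of -2.23 (SE 0.40, edgeR adjusted p = 0.0096) that was lost when either -Dox library was left out. Satellite cells held 4 Nefl reads in all, and counting error places the +Dox mean between 427 and 4010 times their level (edgeR adjusted p = 4.8e-06).

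Linkers that tie filaments to membranes, junctions and other polymers moved in both directions. From +Dox to -Dox, Cryab, a small heat shock protein that chaperones desmin, rose from a mean of 9876 to 70218 (log2 fold change 2.83, SE 0.37, edgeR adjusted p = 0.0018). Macf1, a spectraplakin that links actin and microtubules, rose from 4415 to 16942 (1.94, SE 0.32, edgeR adjusted p = 0.0057). Jup, plakoglobin of junctions, fell by 1.25 on the log2 scale (SE 0.29, edgeR adjusted p = 0.030), a call lost in 6 of 16 alternatives, among them leaving out any 1 of the 5 iPax7 libraries. The other 15 of 18 tested were not called, so 16.7% were called beside 7.64% of all genes. The unadjusted edgeR p was under 0.05 for 7 of the 18, and DESeq2 called 5 higher and 2 lower. Among those edgeR did not call, Dsp had a log2 fold change of -2.45 (SE 0.68, edgeR adjusted p = 0.061). Dtna had 2.90 (SE 0.91, edgeR adjusted p = 0.092).

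In satellite cells, 6 linkers were higher and 3 lower than in +Dox, or 50% of 18 tested beside 42.1% of all genes. Compared with -Dox, 3 were higher and 5 lower, or 44.4% beside 37.6%. Dsp, desmoplakin, which anchors keratin and desmin filaments at desmosomes, averaged 4848 in +Dox, 889 in -Dox and 22.0 in satellite cells. Its log2 fold change in satellite cells was -7.77 (SE 0.76, edgeR adjusted p = 7.5e-05) against +Dox and -5.33 (SE 0.71, edgeR adjusted p = 0.00047) against -Dox. Ppl, periplakin, went the other way, from 10.3 and 11.1 in iPax7 cells to 1505 in satellite cells (7.22, SE 1.51, edgeR adjusted p = 0.0043 against +Dox). Pkp4, a plakophilin family member, was higher against both (1.97 and 1.44), and Cryab was higher than in +Dox at 67760 (2.78). Jup was higher than in -Dox (2.46) and, named after its values were seen, than in +Dox (1.20). Dtna, α-dystrobrevin of the dystrophin complex, averaged 94.0 against 643 and 4805 (-2.77 and -5.67). Trim32, an E3 ligase that acts on desmin, was lower than in +Dox (-1.82) and, named after its values were seen, than in -Dox (-1.38). Macf1 (-2.14) and Pkp2, a desmosomal plakophilin (-2.50), were lower than in -Dox. Mtm1, myotubularin, averaged 941 in satellite cells against 334 in +Dox (edgeR adjusted p = 0.040), a call lost in 9 of 16 alternatives. The calls were lost in 4 alternatives for Dtna against +Dox, in 5 for Pkp2 and in 2 each for Ppl and Pkp4 against -Dox.

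Of 25 partners of the nuclear lamina, edgeR called 0 between -Dox and +Dox, with 4 at an unadjusted p under 0.05, while DESeq2 called 1 higher and 2 lower. In satellite cells 7 were higher and 4 lower than in +Dox, or 44% of those tested beside 42.1% of all genes. Of 6 listed genes of the LINC complex, which couples the lamina to the cytoskeleton, 3 were higher than in +Dox and 3 were not called. This grouping was not among the gene lists, and 23.9% of all genes tested were called higher in the same comparison. Syne1 averaged 1641 against 143 (3.52, SE 0.77, edgeR adjusted p = 0.0054), and Sun2 averaged 655 against 129 (2.34, SE 0.61, edgeR adjusted p = 0.013). Syne2 was also higher than in +Dox (1.78, SE 0.59, edgeR adjusted p = 0.034), which was lost in 5 alternatives. Those not called were Sun1 (0.51), Syne3 (0.71) and Syne4 (-4.28). Lemd3, an inner nuclear membrane protein, was higher by 2.06. Nrm, which encodes nurim, was lower (-2.31), and so were Tmpo, Banf1 and Tor1a (-2.00, -1.93 and -1.77).

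Against -Dox, 5 lamina partners were higher and 3 lower in satellite cells, or 32% of those tested beside 37.6% of all genes. Lbr, the lamin B receptor, averaged 24848 in satellite cells, 9521 in +Dox and 4914 in -Dox, with a log2 fold change of 2.34 (SE 0.33, edgeR adjusted p = 0.00061) against -Dox. Syne2 had 4.17, Sun2 2.63 and Nup153, a nuclear pore protein bound to lamins, 2.30. The fifth was Tor1aip1, which encodes LAP1 and was named after its values were seen (1.19). Tmpo, which encodes LAP2 proteins that bind lamins, and Banf1, a chromatin protein of the nuclear envelope, were lower at -1.70 and -1.63, and Tor1a, the torsinA ATPase, at -1.28. The Sun2 call was lost in 1 alternative and the Tor1a call in 3.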

How the data were processed

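RNA-seq values were read counts per gene, deposited as 1 table per replicate. Per the submitters' processing notes the authors used Trimmomatic 0.32, TopHat2 2.0 and HTSeq 0.6. The annotation and strand setting are not given in the sources used here. The 3, 2 and 3 replicates belong to 1 sample record each, so p-values measure only the spread between these libraries, which may be technical. An exact permutation test cannot go below 0.1 with 3 against 3 libraries or 0.2 with 3 against 2, so genes were tested with edgeR 4.0.16 in R 4.3.3 (TMM scaling, filterByExpr, quasi-likelihood test, 1 mean per condition over all 8 libraries, Benjamini-Hochberg adjustment over 14836 genes). Standard errors are the log2 fold change over the root of the F statistic and are approximate. Rows for unaligned, ambiguous or non-gene reads were left out of library sizes. Ambiguous reads came to 1.51% to 2.32%.

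ATAC-seq peaks were deposited with MACS2 fold enrichment, a ratio, and −log10 p and q as the authors' caller (MACS2 2.0.10) gave them. Reads were aligned with Bowtie2 2.2.6 to mm9, duplicates were removed with Picard, and positions were shifted for the transposase insert. Histone regions came from the authors' ChIP-seq calls on merged replicates. Pax7 peaks were called by the authors per replicate, kept where at least 2 samples with Dox shared them and dropped where any replicate without Dox had them. Neither kind of list carries usable scores. Fold enrichment depends on depth, so percentiles within a list are given. Peaks were assigned with an overlap of 1 base within 1 kb of mm9 start sites, and Pax7 sites by centre within 100 kb. Near copies were searched with blastn 2.17.0. Sequences came from the mm9 genome.

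The members and gene lists were chosen with earlier results of these data known. Named were every member, for each list, comparison and direction up to 4 called genes of largest change that reached 100 normalized counts on average in the higher condition, and for 6 members the 3 genes of most similar pattern. Some of the latter are not reported here. Alternatives were DESeq2 1.42.0, other scalings, filters and windows, a replicate block, and leaving out each library. Figures were drawn with matplotlib 3.10.9.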

Additional observations from a re-analysis of the deposited data

How the results depend on the processing

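The count of genes called between -Dox and +Dox was 1134 and depended on the processing: it was 2145 with DESeq2, 1950 with only the compared conditions fitted and 741 with a replicate block. Leaving out 1 library gave 488 to 1374, with 508 without -Dox replicate 1, 488 without -Dox replicate 2, 674 without +Dox replicate 1 and 630 without +Dox replicate 2. The other counts were 5112 to 6229 (6252 with all) for satellite cells against +Dox and 3204 to 5821 (5579 with all) against -Dox, with 3204 and 3382 without -Dox replicates 1 and 2. Pathway genes called between -Dox and +Dox went from 4 to 12 with DESeq2 and 8 with only the compared conditions, and from 2 to 7 over libraries left out, the latter without satellite cell replicate 1. They were 18 to 23 and 11 to 21 in the other comparisons, with 11 without -Dox replicate 2. Members called were 4 to 5, 5 and 4 to 6 over libraries left out, against 4, 5 and 6 with all. DESeq2 called 6 for -Dox against +Dox, adding Lmnb1 and Lmnb2, and library-total scaling called 4 for satellite cells against -Dox, without them. Members at least 2-fold different were 6 to 7, 6 to 7 and 7 to 8. Fits that left out 1 library rested on fewer libraries, and the causes of these differences were not tested.

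Scaling to library totals moved the share of higher calls from 60.6% to 48.2% for -Dox against +Dox and from 56.7% to 44% for satellite cells against +Dox, with median shifts of -0.215 and -0.382, and of -0.169 for satellite cells against -Dox. Of 360 member fold changes under alternatives, 350 stayed within 1 SD and 15 changed sign, all of Vim, Krt19, Synm or Lmnb2 in comparisons where they were not called. Replicate numbers were shared across conditions. Deviations of same-numbered libraries from their condition means had a mean correlation of -0.0037 over 7 pairs, against 0.0019 over 14 other pairs. With 2 or 3 libraries per condition, these values are tied to each other and cannot exclude a shared preparation. With a −log10 q of at least 10, members with a promoter ATAC-seq peak in C2C12 myoblasts went from 7 to 3. Within 500 bases, H3K27me3 went from 2 to 1 in +Dox, 3 to 1 in -Dox and 1 to 0 in the C2C12 Flag control. A score threshold on histone regions was not run because these lists carry no usable score.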

Other observations

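Genes whose log2 counts most resembled those of a member were ranked by Pearson r over the 8 libraries among 11353 genes. The values describe a pattern that 3 conditions largely set, and nothing about shared function is read from them. Nearest to Krt18 were Mad2l1 (r = 0.995), Cdk1 (0.993) and Tyms (0.992), genes of the spindle checkpoint, the mitotic kinase and thymidylate synthesis. Cdk1 averaged 13600 normalised counts in +Dox, 1412 in -Dox and 291.5 in satellite cells. Nearest to Lmnb1 were Mdc1 (0.988), Ehd2 (0.983) and Recql4 (0.974), and Recql4, a helicase, averaged 163.1 in +Dox, 3.69 in -Dox and 118.3 in satellite cells, so it was likewise lowest in -Dox.

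Among those nearest to Nes were Copz1 (0.994) and Chrna1 (0.992). Chrna1, the acetylcholine receptor α subunit of muscle, averaged 49000 in +Dox, 154600 in -Dox and 5859 in satellite cells. Among those nearest to Des were Cd36 (0.994) and Lsmem1 (0.994), and Cd36, a fatty acid transporter that endothelium also expresses, averaged 2.73 in +Dox, 2053 in -Dox and 15570 in satellite cells. Nearest to Lmna were Spry2 (0.995), Pde3a (0.995) and Aim1 (0.994). Vim had no neighbour as close: Tm9sf2 (0.94), Adrm1 (0.917) and Mbd3 (0.894) led.

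Across the same 8 libraries, Lmnb1 and Lmnb2 had r = 0.906, Krt8 and Des r = -0.926, and Nes and Lmna r = -0.93.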
